A study of Mus musculus with 3 samples.

Results

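The antigen receptor gene segments are the constant (C), variable (V), diversity (D) and joining (J) genes of the T cell receptor and immunoglobulin loci. They were taken from a deposited list of crosslink positions attributed to ZFP36L1, as every position whose deposited gene biotype began with IG_ or TR_. That rule gave 249 of 462392 positions, in 62 segment genes, and used no measured value. The list came from individual-nucleotide crosslinking and immunoprecipitation (iCLIP), in which ultraviolet light joins a protein to the RNA it touches and the cDNA end marks the place of contact to the base. The series holds 2 WT libraries from separate experiments and 1 DCKO library, in which Zfp36l1 and Zfp36l2 are conditionally deleted in combination. All 3 were made from total naive thymocytes of C57BL/6JBabr mice, irradiated as intact cells at 300 mJ/cm2, with an antibody named Brf1/2 in the labels. That name does not single out ZFP36L1, so the positions cannot be assigned to ZFP36L1 alone. Which libraries the list pools is not stated, and the DCKO library may be among them. The sources used here state neither the age of the mice nor the driver of the deletion.

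T cell and B cell receptor genes are assembled from V, D and J segments by the RAG1 and RAG2 recombinase, and the joined exon is then spliced to a constant gene. Thymocytes rearrange the beta locus (Trb) first, pair its product with the invariant pre-T alpha chain encoded by Ptcra, and then rearrange the alpha locus (Tra). The gamma (Trg) and delta (Trd) loci serve the separate gamma delta lineage, and the heavy (Igh) and light (Igk, Igl) chain loci belong to B cells. ZFP36L1 is a CCCH zinc finger protein that binds AU-rich elements, mostly in 3′ UTRs, and promotes decay of the bound mRNA.

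The list gives 1 value per position with no library column, so no WT and DCKO values could be set side by side, and replicate errors and tests could not be given. The value is a whole number that the authors' header calls counts, and it is called the count here. Positions with a deposited false discovery rate (FDR) below 0.05 are called sites. Intervals are 95% Wilson intervals and cover counting error only, and neighbouring positions within a gene are not independent. Counts over the whole list summed to 814493, and the depth of each library is unknown.

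The label thymocyte was set beside the counts of marker genes. These count crosslinked RNA, do not measure expression and are not adjusted for gene length, so they cannot settle cell identity. All 10 thymocyte markers were listed, 9 of them with a site, at a median summed count of 302.0 (11 to 3281). The B cell markers had a median of 1.0 (0 to 6): 6 of 11 were listed and 1, Blk, had a site. Cd79a, Ebf1, Cd22, Vpreb1 and Igll1 were at 0. Plasma cell markers ran from 0 to 21 with a median of 1.5, and Xbp1, which many cell types express, was the 1 of 4 with a site. Over protein-coding gene names with any position, 63.6% of 12541 had a site.

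The deposited biotype did not separate the receptor families. Of the 249 positions, 242 carried an IG_ biotype, but 236 of these lay in T cell receptor genes or Ptcra by gene name. By gene name and by the GENCODE vM21 record, Ighm was the 1 immunoglobulin gene among the 62, with 6 positions. Another 60 genes had T cell receptor types in GENCODE, and Ptcra is protein-coding there. None of 249 annotated immunoglobulin V, D or J segments and none of the 23 genes of D type in GENCODE had a listed position.

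The sequences with the highest counts lie just before exon 2 of the beta constant genes Trbc1 and Trbc2, where they are shown with the exon itself, and before exon 4 of Trbc2 and exon 2 of the alpha constant gene Trac, where they are shown for comparison. They were read from RefSeq GRCm38.p6 on the plus strand, at chr6:41539054-41539131, chr6:41547550-41547627, chr6:41548091-41548169 and chr14:54222046-54222114. Capitals mark bases with a listed position.
Trbc1 exon 2: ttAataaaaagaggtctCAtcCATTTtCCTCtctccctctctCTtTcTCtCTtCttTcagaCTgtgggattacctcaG
Trbc2 exon 2: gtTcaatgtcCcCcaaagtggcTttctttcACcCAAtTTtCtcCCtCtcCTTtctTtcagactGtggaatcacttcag
Trbc2 exon 4: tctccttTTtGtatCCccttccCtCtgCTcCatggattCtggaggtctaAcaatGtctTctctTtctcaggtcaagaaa
Trac exon 2: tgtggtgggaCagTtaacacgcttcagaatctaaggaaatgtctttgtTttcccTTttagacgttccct

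The beta locus held most of the receptor signal. Its 177 positions carried a count of 473 of 590, or 80.2%, and 63 of the 76 sites, or 82.9%. The alpha locus followed with 50 positions, a count of 83 (14.1%) and 8 sites. Gamma segments had 8 positions with a count of 12 and 3 sites, and delta segments had 1 position with a count of 1 and no site. Ptcra had 7 positions with a count of 11 and no site, and Igh had 6 positions with a count of 10 and 2 sites. By class, constant genes carried a count of 441 (74.7%), V segments 93 (15.8%) and J segments 56 (9.49%). The order of loci was thus beta, alpha and then the rest, and Trbc1 and Trbc2 together held 63.6% of the count and 78.9% of the sites.

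**Figure D1:**
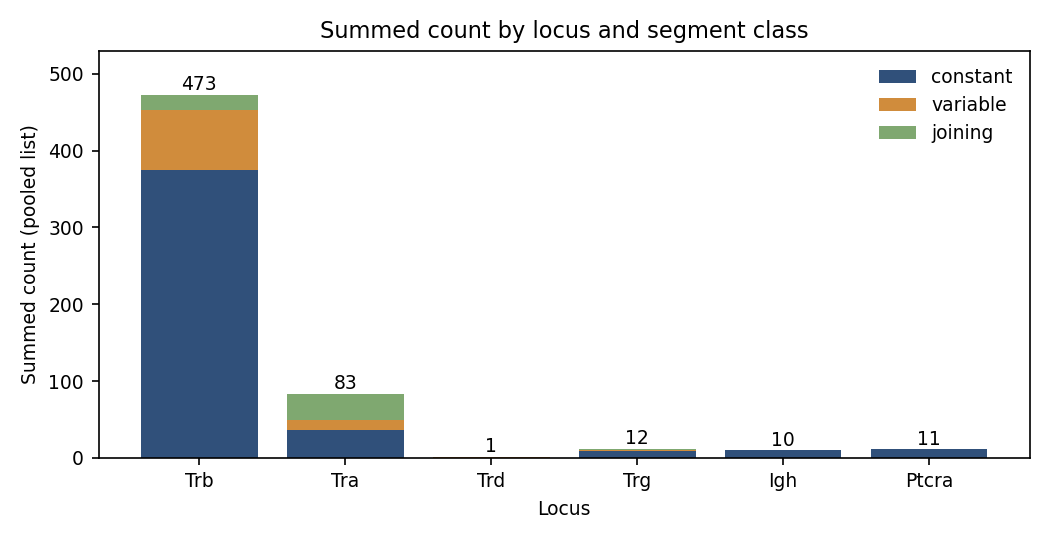
Summed count of the pooled list (y axis) for each receptor locus (x axis), with bars stacked by segment class. The beta bar reaches 473, of which Trbc1 and Trbc2 hold 375, and the alpha bar reaches 83.

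Of the 249 positions, 76 were sites, or 30.5% (25.1 to 36.5), beside 30.7% of all listed positions, so by the deposited labels the segments as a whole stood at the background. With segments taken from GENCODE, which adds the last exons of constant genes, the share was 39.2% (33.9 to 44.8). The split by the authors' label differed from the background in both directions. Among the 154 positions labelled intron 42.2% (34.7 to 50.1) were sites, beside 28.8% of all intron positions. Trbc1 and Trbc2 held 55 of these 65 intron sites, at 96 of the positions. The share at the other 58 intron positions was below that of all intron positions. Among the 95 positions labelled non-coding RNA, which is how the list labels exons of these segments, 11.6% (6.59 to 19.6) were sites, beside 40.7% of all positions with that label. That label otherwise covers non-coding RNA genes, so the latter pair compares unlike transcripts. Constant genes reached 47.7% (40.0 to 55.6), V segments 4.84% (1.66 to 13.3) and J segments 0 of 34, where 3 counts of the total, the limit used here for a count of 0, would be 8.82% and the Wilson upper bound is 10.2%. Without Trbc1 and Trbc2 there were 16 sites among 133 positions, with an interval of 7.54 to 18.6%. Sites lay in 6 of the 62 genes, namely Trbc1, Trbc2, Trac, Tcrg-C4, Ighm and Trbv3. The 6 sites in Tcrg-C4 and Trbv3 had counts of 1 or 2 and the highest possible deposited p-value. They are sites by the deposited FDR alone.

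**Figure D2:**
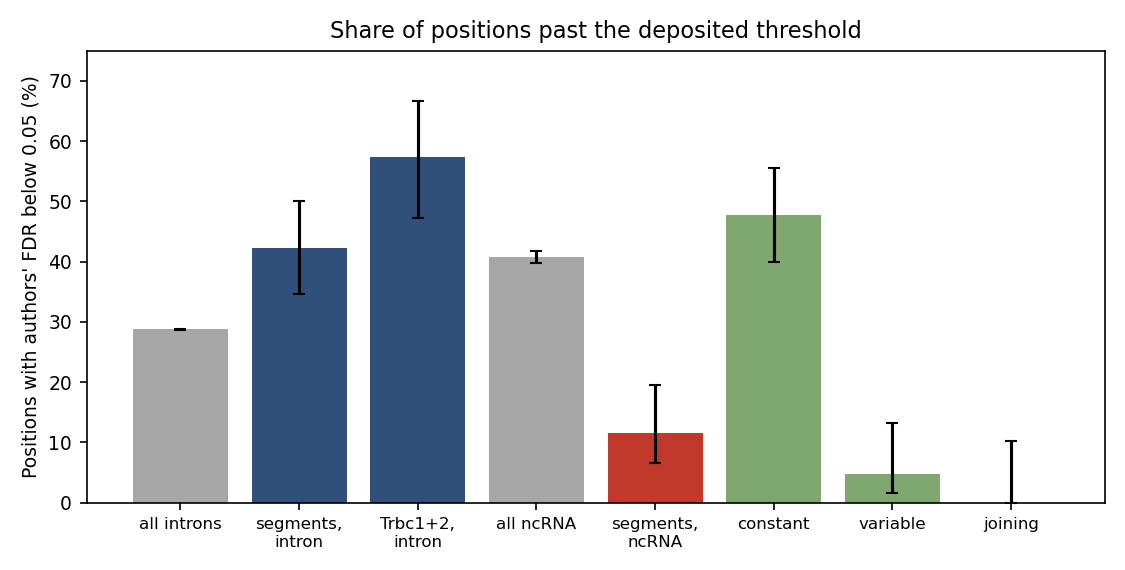
Share of listed positions with an authors' FDR below 0.05 (y axis, percent) for all positions of a label (grey), for receptor segment positions by label (blue for intron, red for non-coding RNA) and by class (green), with 95% Wilson intervals. Trbc1 and Trbc2 introns reach 57.3%, whereas the joining segments stand at 0.

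Trbc1 and Trbc2 encode the near-identical constant regions of the T cell receptor beta chain. Trbc1 (ENSMUSG00000076490, chr6:41538218-41539881, plus strand) had 51 positions, a count of 180, or 108.0 per kb of gene, and 24 sites. Trbc2 (ENSMUSG00000076498, chr6:41546730-41548352, plus strand) had 65 positions, a count of 195, or 120.0 per kb, and 36 sites. The signal was mainly intronic in both. Introns held a count of 159 at 41 positions in Trbc1 and 177 at 55 positions in Trbc2. Exons held 21 and 18, each at 10 positions. All 21 segment positions with a count of 5 or more lay in this pair of genes, and 18 of them were within 50 nt before an exon. Over all receptor segments 48 of the 76 sites (63.2%) lay within 50 nt before an exon, beside 7.49% of all sites of the list, which include sites outside introns. Among sites labelled intron the shares were 73.8% in receptor segments and 10.5% in the list.

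In Trbc1 the counts gathered before exon 2, an exon of 18 nt that starts at 41539114. The 50 nt before it held 20 positions with a count of 116, all 20 of them sites, which was 73.0% of the count in the introns of the gene. The positions formed separate groups within that stretch. A group 30 to 43 nt before the exon had 11 positions with a count of 83, and a group 4 to 18 nt before it had 9 positions with a count of 33. The strongest position of all receptor segments, with a count of 35, was the C at 41539075, 39 nt before the exon. The next in the introns of this gene were 11 at 41539104 and 8 at 41539079 and 41539105. No position was listed from 19 to 29 nt before the exon, the run of lower case letters between the groups of capitals in the Trbc1 sequence. Bases T or C, which make up the polypyrimidine tract before an exon, held 89.7% of the count in these 50 nt. Most bases of the stretch are T or C, and so was the base at 77.0% of all intron positions of the list. No preference for these bases is read from this share.

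In Trbc2 the matching stretch before exon 2, which starts at 41547610, held 18 positions with a count of 101 and 16 sites, or 57.1% of the intron count of the gene. Here the balance lay closer to the exon. The 7 positions 5 to 17 nt before the exon had a count of 67, and the 11 positions 20 to 50 nt before it had 34. The strongest were 3 adjacent bases, with 18 at 41547601, 17 at 41547600 and 16 at 41547599, which are 9, 10 and 11 nt before the exon. The next was 8 at 41547585, 25 nt before it. Both genes thus had their highest counts before the same exon, at different distances from it: 31 to 40 nt before an exon lay 50.3% of the Trbc1 intron count and 3.39% of that of Trbc2. Over all introns of the list this bin held 0.898%.

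**Figure D3:**
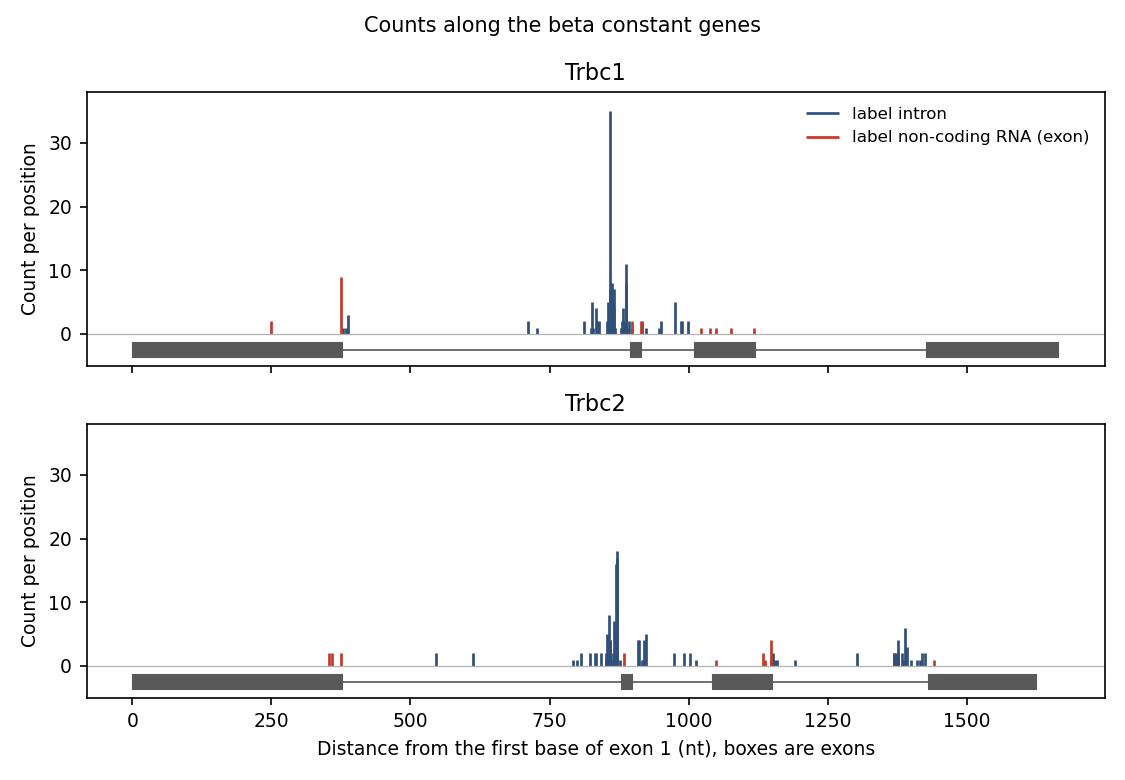
Count at each listed position (y axis) against the distance in nt from the first base of exon 1 (x axis) in Trbc1 (upper panel) and Trbc2 (lower panel). Bars are blue for the intron label and red for the non-coding RNA label, which marks exons here, and grey boxes are exons. The tallest bars, 35 in Trbc1 and 18 in Trbc2, stand just before the short exon 2.

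The pair differ enough in sequence there for their reads to be told apart. Exon 1 is 99.7% identical between the genes, exon 2 83.3% and exon 3 86.0%, whereas intron 1 is identical at 52.7% of alignment columns and its last 60 nt at 59.7%. The 30 nt that follow each of the 116 Trbc1 and Trbc2 positions occur once in the genome. In exon 1 the next 30 nt differ from the other copy at 53 of 375 bases, and the 5 exon 1 positions listed for the pair all lay at such bases. Counts in the rest of exon 1 were therefore not measurable with uniquely placed reads of that length. Across all 249 positions 246 had a unique 30 nt sequence, and the exceptions, each with a count of 1, were in Trav1, Trdv1 and Trav15-1-dv6-1, chosen after their values were seen.

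Smaller groups stood elsewhere in the beta constant introns. In Trbc2, exon 4 (start 41548161) was preceded by 10 positions within 50 nt, with a count of 20 and 5 sites. Its strongest had a count of 6, 43 nt before the exon. Another 6 positions, 11 to 25 nt into intron 2, had a count of 19 and were all sites. In Trbc1 the 50 nt before exon 3 held 4 positions with a count of 11 and no site, and the 50 nt before exon 4 held no position labelled as this gene.

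Together, 74.7% of the intron count of the pair lay within 50 nt before an exon, 79.9% in Trbc1 and 70.1% in Trbc2, beside 8.53% over all introns of the list. Their counts before exons, 127 and 124, ranked 3 and 5 of 6026 genes with any such count, after those of Satb1 (223) and Ptprc (145). By the percentage of their intron count they ranked 1 and 2 of 1232 genes with an intron count of at least 100, where the median gene had 5.87%. These ranks were computed after the values were seen, and the genes have short introns. The last 50 nt of each intron make up 16.4% of intron length in Trbc1 and 16.1% in Trbc2, beside 0.93% in the median gene. The percentage of count divided by the percentage of length was 4.87 in Trbc1 and 4.35 in Trbc2, beside a median of 5.64 over 1099 genes. By this ratio they ranked 643 and 689. The ratio cannot pass 6.1 in Trbc1 and 6.21 in Trbc2, where these 50 nt stretches are a large part of the introns, against 108.0 at the median share of intron length, so the rank by ratio has little room in these genes.

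**Figure D4:**
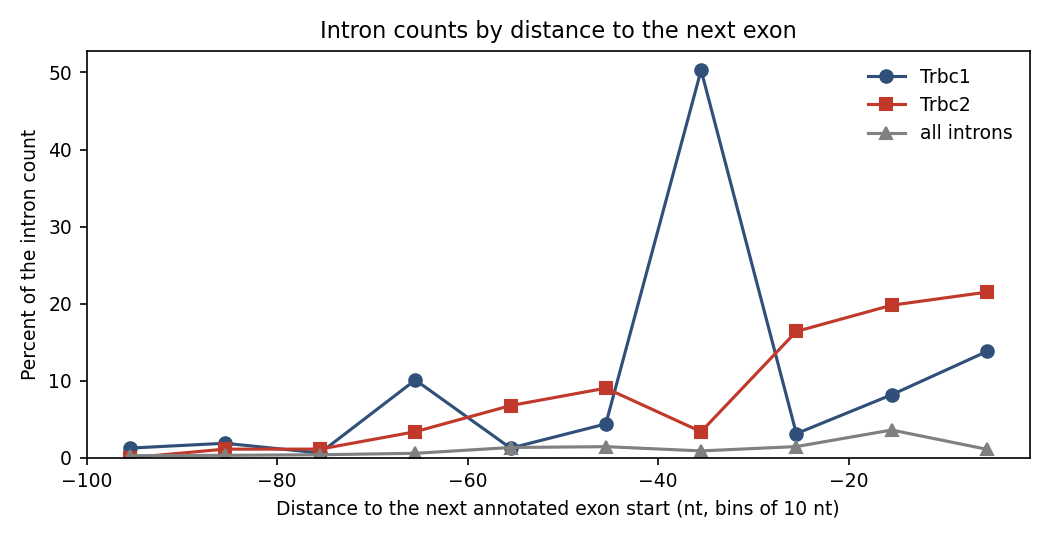
Percent of intron count (y axis) in bins of 10 nt by distance to the next annotated exon start (x axis, nt) for Trbc1 (blue circles), Trbc2 (red squares) and all introns of the list (grey triangles). Trbc1 peaks at 50.3% in the bin 31 to 40 nt before an exon, Trbc2 at 21.5% in the bin nearest the exon, and all introns at 3.61% in the bin 11 to 20 nt before an exon.

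Part of the exonic signal of constant genes lay near the ends of exons that precede an intron. Of 37 exonic positions labelled with constant genes, 17 lay in the last 20 nt of such an exon (45.9%), with 58.3% of the exonic count. Among positions labelled coding over the whole list, 19.9% of positions and 20.8% of the count lay there. With the full GENCODE exons of these genes, whose last exons the list labels intergenic in large part, the shares were 21.0% of 81 positions and 25.6% of the count. Last exons precede no intron, so adding them can only lower these shares. Exon 2 of Trbc1 and of Trbc2 has 18 nt, so any position in it counts toward these shares by length alone. Of the 17 positions, 3 with a count of 5 lay in exon 2 of Trbc1 and 1 with a count of 2 in that of Trbc2. Positions labelled coding leave out UTRs, so these shares cannot decide whether the concentration holds over whole exons. In exon 1 of Trbc1 and Trbc2 the limit to 53 copy-specific bases also bears on where a position could be listed. Sites lay in the last 20 nt of exon 1 of Trbc1 and Trac and of exon 3 of Trbc2. Exon 1 of Trbc2 is shown for comparison, and its last 20 nt held 2 positions with a count of 4 and no site. For these exons the last 25 nt and the first 12 nt of the next intron are given below. They are from RefSeq GRCm38.p6, plus strand, at chr6:41538568-41538604, chr6:41547080-41547116, chr14:54220757-54220793 and chr6:41547854-41547890, with capitals at listed positions.
Trbc1 exon 1 end: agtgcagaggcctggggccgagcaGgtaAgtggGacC
Trbc2 exon 1 end: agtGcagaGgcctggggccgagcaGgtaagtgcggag
Trac exon 1 end: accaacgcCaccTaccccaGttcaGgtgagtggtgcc
Trbc2 exon 3 end: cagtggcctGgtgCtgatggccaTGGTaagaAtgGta

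The last base of Trbc1 exon 1, the G at 41538592, had a count of 9 and was a site. Among 1794 listed positions on the last base of an exon before an intron this was the highest count, and the next was 7, at 3 positions. The last base of Trbc2 exon 1, in a sequence that is the same over these 25 nt, had a count of 2. In Trbc2 exon 3 the last 20 nt held 4 positions with a count of 8, all sites, the strongest being 4 on the last base. In Trac exon 1 the last 20 nt held 4 positions with a count of 11, of which 3 were sites, and its highest counts were 4 at 54220765 and 4 at 54220769. The sources used here do not state whether a listed position is the first base of a read or the base before it, so a position on the last exon base cannot be assigned to spliced or unspliced RNA.

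Trac (ENSMUSG00000076928, chr14:54220521-54224206, plus strand) encodes the constant region of the alpha chain. It had 18 positions with a count of 36, or 9.77 per kb of gene, and 8 sites. Its 10 exonic positions had a count of 23 and its 8 intronic positions a count of 13. The 5 positions within 50 nt before exon 2 had counts of 1 or 2, 8 in all, and were all sites. They fell at bases T or C, as the Trac sequence printed with those of the beta genes shows. The balance between exon and intron thus differed from the beta genes, where introns held the larger count. In exon 1 of each beta gene only 53 of 375 bases differ from the other copy over the next 30 nt. The part of this in the difference was not tested.

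The deposited gene labels left out part of the last exons of the constant genes, which made the largest difference for Trac. Positions on the same strand inside a GENCODE receptor segment numbered 301, of which 237 were also in the deposited class. Another 64, with a count of 121, were labelled intergenic in the list. Of these 42 were sites, or 65.6%, beside 42.5% of all intergenic positions. In the Trac UTR in the last exon there were 26 such positions with a count of 65 and 24 sites, a larger count than the rest of the gene held. With them and 4 more in introns, Trac had 48 positions, a count of 106 and 34 sites. The strongest, at 54224149, had a count of 24. Its surroundings at chr14:54224135-54224163 (RefSeq GRCm38.p6, plus strand, capitals at listed positions) are shown because they hold the highest count of Trac.
Trac last exon: tgtgTattgagccaCAtTgtaTattattc

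Of the 26 Trac UTR positions 13 had TTTTT within 20 nt and 0 had TATTTA. The Trbc1 UTR had 10 such positions with a count of 15 and 9 sites, and the Trbc2 UTR had 7 with a count of 11 and 7 sites, with counts of at most 2. Neither motif lay within 20 nt of those 17. The remaining additions were few. Trdc, the delta constant gene, had 6 positions with a count of 10 and no site, Ighm 3 more positions and Ighd, chosen after its values were seen, 2.

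The other constant genes had low counts. Tcrg-C4, a gamma constant gene (ENSMUSG00000076757, chromosome 13), had 3 positions with a count of 2 each, all sites. They were adjacent bases inside a run of T in its first intron, at chr13:19347050-19347090 (RefSeq GRCm38.p6, plus strand), which is shown because the run, of 28 nt in this window, holds all 3 sites.
Tcrg-C4 intron: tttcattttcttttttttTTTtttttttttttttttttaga

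Tcrg-C2 had 2 positions and Tcrg-C1 had 1, each with a count of 1 and no site. Ptcra had 7 positions with counts of 1 or 2 and no site, 5 in introns and 2 in exons. Its summed count of 11 was below the median of 13.0 over protein-coding gene names with a position. Ighm, the constant gene of IgM, had 3 intronic and 3 exonic positions with counts of 1 or 2. Its 2 sites, at 113421697 and 113421701 on the minus strand of chromosome 12, were 11 and 15 nt before an exon. The B cell markers beside it had summed counts of 0 to 6, and their part in the Ighm counts was not tested.

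V segments had 62 positions in 29 genes, 24 exonic and 38 labelled intron. Of the latter 37 lay inside their gene, in the intron between leader and V exon, and 1, in Trav14-3 (chosen after its value was seen), lay past the end of its gene. Of the intronic positions 25 lay within 50 nt before the V exon. Of the annotated V genes, 17 of 22 in the beta locus, 10 of 108 in the alpha locus and 1 of 5 in the delta locus had a position. In the gamma locus 1 V gene had a position. No share is given there, because only gamma V genes with a name starting in Trgv were counted. The counts of V segments were low, with a highest summed count of 9, in Trbv3 and Trbv26. Trbv3 had 6 positions and the 3 V segment sites, 11 to 17 nt before the end of its leader exon. That end, at chr6:41048418-41048454, is printed from RefSeq GRCm38.p6, plus strand, because it holds these sites, with capitals at listed positions.
Trbv3 leader end: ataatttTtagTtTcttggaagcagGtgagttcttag

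Trbv26 had 5 positions and no site, and 3 of them, 12 to 25 nt before the V exon, had TATTTA within 20 nt. Trbv31, which lies downstream of Trbc2 in the opposite orientation, had 4 positions with a count of 8, of which 4 fell on 41558119. Trbv4 had 5 positions with a count of 6, and Trbv1 had 4 with a count of 5, a count shared by 3 other V genes. Per kb of gene these 5 V segments had counts of 7.61 to 18.4.

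J segments had 34 positions in 25 genes with counts of 1 or 2 and no site. The highest summed count was 4, in Traj33, Trbj1-2 and Trbj2-7, segments of 57, 48 and 47 nt, with counts of 70.2, 83.3 and 85.1 per kb. Positions were spread over the segments: the median distance to the 3′ end of the segment, where the J exon is spliced to the constant gene, was 29.0 nt (0 to 54), and 3 positions lay on the last base. By annotated J_gene records, 13 of 51 alpha, 8 of 13 beta and 1 of 4 gamma J segments had a position. With 1 or 2 counts per position no order among the J segments was detectable at this depth.

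TATTTA and TTTTT were less frequent around receptor positions than in the list as a whole. TATTTA, a core motif of AU-rich elements, was searched for within 20 nt on either side of each position on its own strand. It was near 7 of 249 positions (2.81%), beside 10.6% of all listed positions. None of the 76 sites had it, which by the same limit allows a share of up to 3.95% (Wilson upper bound 4.81%), and none of the Trbc1, Trbc2 or Trac positions. The 7 were in Trbv26 (3), Ptcra, Tcrg-C2, Trav1 and Trav12-1, the last named after its value was seen. TTTTT, which can share bases with TATTTA, was near 12.9% of positions, beside 32.0% of the list, and near 7 of 116 positions in Trbc1 and Trbc2. The difference from the list was not general: V segments had TATTTA at 8.06% and TTTTT at 29.0% of positions, and all segments without Trbc1 and Trbc2 at 5.26% and 18.8%. Among positions labelled non-coding RNA, TTTTT was near 8.42% in receptor segments and 10.1% in the list. Among positions labelled intron, TTTTT was near 15.6% in receptor segments and 33.7% in the list, and TATTTA near 3.9% and 10.6%. The listed base was T at 45.4% and C at 28.5% of receptor positions, beside 57.3% and 17.9% over the list. In the 50 nt before exons of Trbc1 and Trbc2 it was C at 48.1% and T at 37.0% of the 54 positions. No match says only that these letters are not in the window.

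Genes that assemble and carry the receptor were compared as a list of 18, chosen with earlier results of these data known. All 18 had a position, 16 had a site and 6 had a site labelled 3′ UTR, with a median summed count of 99.5 (11 to 2270). The share with a site is read beside the 63.6% of protein-coding gene names. No share of genes with a 3′ UTR site was computed over the list, so the 6 cannot be called many or few. The 2 without a site were Ptcra, at the lowest count, and Tcf3, an E protein transcription factor, at 57. Among the recombination enzymes, Rag1 had a count of 2270, of which 2012 was labelled 3′ UTR, Rag2 had 67, of which 19 was, and Dntt, which adds untemplated bases at the joins, had 272, of which 37 was. Lig4, the ligase of end joining, had 19 sites, all in the 3′ UTR. Among the invariant chains of the receptor complex, Cd3e had a count of 372, of which 273 was labelled 3′ UTR. Cd247, the zeta chain, had 543 with 18 so labelled, Cd3g 101 with 0, and Cd3d 31 with 2. Rag1 and Cd3e thus had most of their count in the 3′ UTR, and Cd247 and Cd3g in introns (503 and 84). Summed counts are not adjusted for gene length or transcript abundance.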

How the data were processed

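The labels' protocols describe iCLIP libraries from thymocytes, sequenced as single reads of 100 nt, and the submitters' processing notes name Bowtie and GRCm38. The sources used here state no version, peak caller, randomisation or choice of libraries pooled. The authors deposited 1 list. Its whole-number value per position, per the file headers a count, and the sum within 15 nt are treated as scores; the sum was recomputed at 249 of 249 positions within gene and label. No test rests on the deposited p-value. The deposited FDR score exceeded 1 at 37 receptor positions (14.9%, beside 0.827% of the list), none of which is a site. Positions count from 0 in the list, and are printed from 1: of 1120 coding or intron positions over the list where the label tells the 2 countings apart, 97.6% required a start at 0. In the constant genes 146 of 146 labels matched that way, against 145 counting from 1.

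Segments were matched by name to GENCODE vM21, and distances to exons came from it. RefSeq GRCm38.p6 gave sequence. Rearranged or spliced reads have no place in that germline sequence, so such reads were not analysed here. Copies were aligned globally with Biopython 1.88, and windows of 30 nt were searched on both strands of the genome. Python 3.11.15, pandas 2.3.3, numpy 2.4.6, scipy 1.17.1 and matplotlib 3.10.9 were used, and the scripts were tested on simulated data.

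Members, lists and alternatives were chosen with earlier results of these data known. Genes named were each constant gene, the 5 V and 3 J segments with the highest summed count (ties broken by positions, then name), the 10 highest positions and the receptor assembly list. Any other name is marked as chosen with values in view, which holds for Satb1 and Ptprc too.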

Additional observations from a re-analysis of the deposited data

How the results depend on the processing

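Of 29 alternatives, 14 moved a value by less than its 95% interval and 15 by more; none had a test. The site share of 30.5% stayed within its interval at an FDR of 0.01 (27.3%) or 0.10 (33.7%). It rose to 39.2% with segments taken from GENCODE and to 86.8% over positions with a count of 3 or more, where the whole list reached 88.5%. The beta share of the count, 80.2%, became 72.5% with GENCODE and 95.5% with a count of 3 or more, and its share of sites, 82.9%, became 66.9% and 93.9%. TATTTA, at 2.81%, became 1.2% within 10 nt (whole list 6.3%), 0.0% at sites (20.6%) and 1.06% without soft-masked positions (5.26%). TTTTT, at 12.9%, became 21.3% within 50 nt (44.8%) and 8.99% without soft-masked positions (14.2%). The share of Trbc1 and Trbc2 intron count within 50 nt before an exon, 74.7%, was examined with alternatives chosen after seeing the data. It was 42.3% within 30 nt, 88.4% within 100 nt, 85.3% over sites, 79.9% in Trbc1 alone and 71.8% without the highest position. The settings change the positions kept, the window or the distance; other causes were not tested. No paired analysis was possible because the list pools its libraries, and for the same reason none could be left out. Low counts limit V and J segments, where most positions had 1 or 2.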

Other observations

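Between the annotated segments, and at a few bases inside GENCODE segments, the list held further positions labelled intergenic. They carry no segment label in the list and are given as values. The interval of the alpha J segments, from the first to the last annotated J gene, spans 61.8 kb and had 324 positions with a count of 539 on the transcribed strand and none on the other. Of these 20 were segment positions and the other 304 were labelled intergenic, with 88 sites (28.9%), beside 42.5% of all intergenic positions. That is 5.25 positions per kb, against 0.0542 per kb in the alpha V interval. The beta J intervals had 22.5 and 28.1 positions per kb and the beta V interval 0.325. The heavy, kappa and lambda chain loci had 0.0211, 0.00757 and 0.0151.

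A cluster between Traj16 and Traj15, chosen after its values were seen, held 21 positions within 30 nt with a count of 105, all sites, which was 20.7% of the intergenic count of the alpha J interval. Its strongest position, at 54204112 on the plus strand, had a count of 24, equal to the highest in the last Trac exon. Of the 21 positions 18 had TATTTA within 20 nt, all sharing the 1 copy in the printed sequence, against 1.06% of the other intergenic positions of the interval, and 17 lay in soft-masked sequence. The sequence at chr14:54204088-54204143 (RefSeq GRCm38.p6, plus strand, capitals at listed positions) shows the motif among the listed bases.
Traj interval cluster: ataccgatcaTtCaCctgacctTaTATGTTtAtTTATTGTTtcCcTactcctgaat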
